A study of Homo sapiens with 12 samples.

Results

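The comparison described here is that of Caco-2 cells given ochratoxin A alone with untreated Caco-2 cells, across all genes measured. Its members are the 3 libraries whose titles name the toxin alone and the 3 of no treatment, 6 of the 12 RNA sequencing libraries of the series. Caco-2 is a line from a human colon adenocarcinoma that polarises into an absorptive monolayer, and all 6 libraries come from this line without any genetic change named in the labels. Cells were kept for 21 days on porous inserts and then moved to a salt buffer, HBSS with HEPES, in which untreated wells stayed. The treated wells received ochratoxin A (OTA) at 15 µmol/L on the apical side. How long the cells were exposed is not given in the labels. The other 6 libraries received Bacillus subtilis CW14, a bacterium, with OTA (the combined group) or without it (the CW14 group), and they enter here only as a second setting in which OTA was or was not present. No label states that the 3 replicates of a group came from different cultures. What the p-values measure is then how far these libraries vary, and part of that variation may be technical.

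OTA is made by Aspergillus and Penicillium moulds and contaminates cereals, coffee and wine. Its molecule carries phenylalanine, and it is known as a competitor of phenylalanine in charging transfer RNA and as a kidney toxin. Many regulators of growth and stress signalling, among them the AP-1 factors, the dual-specificity phosphatases and the Sprouty proteins, are made from short-lived messenger RNAs, so that their levels follow recent transcription closely. Messenger RNAs of structural and metabolic proteins generally last much longer.

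Values are FPKM, fragments per kilobase of transcript scaled to the mapped fragments of a library, as deposited. Differences are on the scale of log2(FPKM + 1), OTA minus control, which understates the change of low genes, and each comes with its standard error (SE). Calls below are those with an adjusted p under 0.05 in limma, in a fit to the 12928 genes whose mean over all libraries reached 1 FPKM. The 6 libraries differed in recovered relative depth from 0.66 (OTA replicate 2) to 1.6 (OTA replicate 1), with control replicate 1 set to 1. The median SD within a group was 0.148 for control and 0.147 for OTA on the log2 scale. Combined replicate 3, which is in neither group but shares the estimate of the spread, stood apart from the other 11 libraries (residual SD 0.588). Of 20 epithelial markers, 18 were at 1 FPKM or more in all 6 libraries, and SI and FABP2, which mark mature enterocytes, stayed under 1 FPKM in each. With OTA, 1 of the 20 was called higher (VIL1) and 2 lower (KRT18 and KRT20). Of 20 markers of immune, stromal, endothelial, enteroendocrine, goblet and Paneth cells, 12 were below 0.5 FPKM in all 6 libraries and 6 were listed at 0. The summed level of these markers was 120.4 to 154.9 in control and 169.6 to 207.1 in OTA libraries, most of it CD68 and LYZ, no member was called, and its part in the results below was not tested. In RNA from whole wells, fewer cells of a type and less RNA per cell cannot be told apart.

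With OTA, more genes were called lower than higher, and the falls were larger. Of the genes tested, 2288 (17.7%) were called, 1665 lower (12.9%) and 623 higher (4.82%). Lower calls of at least 1 on the log2 scale numbered 752 (5.82%), against 51 higher calls of that size (0.394%). For falls of at least 2 the count was 134 (1.04%), and 7 genes were higher by at least 2. The median difference was -0.94 among lower and 0.62 among higher calls, and 0.03 over all genes. The lowest 1% of all genes lay below -2.07, while the highest 1% lay above 0.97. In 541 of the 12928 genes, each OTA library lay below 50% of the lowest control, with a control mean of at least 1 FPKM. The OTA and control libraries did not overlap in 50% of all genes tested. The OTA libraries were all below the controls in 25.7% and all above in 24.4%. Lack of overlap in a gene named below is therefore common among all genes.

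**Figure D1:**
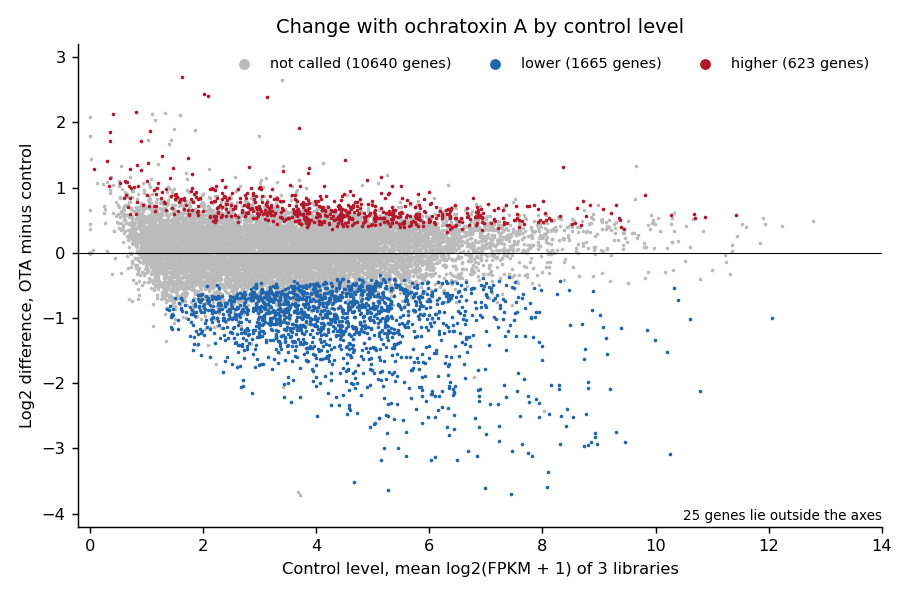
Log2 difference, OTA minus control, of each tested gene against its control level (mean log2(FPKM + 1) of 3 libraries), with 1665 lower calls in blue, 623 higher calls in red and genes not called in grey. The falls reach below -3 on the left axis and the rises seldom pass 1; 25 genes, most of them small RNA genes with zeros, lie outside the axes.

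The balance of falls and rises varied with the level of the gene. Below 3 FPKM in control, 2.25% of 2491 genes were called lower and 3.37% higher, and the median difference was 0.10. The filter takes the mean over all 12 libraries, so genes this low can enter through higher levels in other groups, OTA included. On the scale of log2(FPKM + 1) they cannot fall by 2. Their shares therefore depend on the filter and the scale. Between 3 and 10 FPKM in control, 10.7% of genes were called lower and 3.46% higher. From 30 to 100 FPKM the shares were 20.5% and 6.57%, and 54 genes fell by at least 2. Above 300 FPKM, where 206 genes were tested, 42 were lower and 20 higher, and the median difference of these genes was 0.22. The scaling between libraries moves the balance of directions. Higher calls made up 27.2% of all calls on the deposited scale, 46.2% after centring each library on its median (1153 higher, 1342 lower; the median gene then shifts by 0.105), 40.2% after quantile normalization and 42.7% after upper-quartile scaling. The number of rises also depended on single libraries. It was 623 with all libraries, 331, 263 and 208 without control replicates 1, 2 and 3, 291, 264 and 208 without OTA replicates 1, 2 and 3, and 1903 without combined replicate 3. All calls together numbered 1467, 1346 and 1299 without control replicate 2, control replicate 3 and OTA replicate 3, and 4364 without combined replicate 3. The number of falls went from 1665 to 1091 without OTA replicate 3 and to 2461 without combined replicate 3. For lists with fewer than 10 rises, the range over the fits that leave out 1 of the 12 libraries is therefore given, and its upper end was always reached without combined replicate 3. Counts of calls in the lists below stand beside 12.9% lower and 4.82% higher over all genes tested.

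Promoters of tested protein-coding genes were searched for short sequence motifs. The first set below comprises the 5 genes lower with OTA by the largest amounts among those with a CArG box, the site of serum response factor, in the 250 bases before the start or the 50 after it. Bases are from RefSeq on GRCh38.p14, written 5′ to 3′ on the gene's strand, and capitals mark the CArG box. EGR1 lies at chr5:138465359-138465420 on the plus strand, RND3 at chr2:150487743-150487782, RCAN1 at chr21:34615328-34615363, FHL2 at chr2:105438590-105438629 and PDGFA at chr7:520322-520361, the last 4 on the minus strand.
EGR1: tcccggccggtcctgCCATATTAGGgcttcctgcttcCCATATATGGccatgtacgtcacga
RND3: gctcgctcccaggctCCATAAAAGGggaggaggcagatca
RCAN1: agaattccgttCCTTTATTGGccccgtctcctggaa
FHL2: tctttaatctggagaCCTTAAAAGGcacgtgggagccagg
PDGFA: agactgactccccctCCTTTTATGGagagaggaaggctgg
The log2 differences of these genes were -3.58 for EGR1, -2.65 for RND3, -1.98 for RCAN1, -1.14 for FHL2 and -1.11 for PDGFA. A CArG box on either strand was present in 1.07% of the 9631 promoters of tested protein-coding genes that could be matched, in 1.13% of those called lower and in 1.85% of those lower by at least 2, so the box was not common among the falls.

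A TATA box, TATAAA on either strand of the 300-base window, was more frequent among the largest falls. It was found in 5.91% of all promoters, 8.55% of those of genes called lower, 11% of those lower by at least 1 and 28.7% of those lower by at least 2, against 6.81% of genes called higher. Restricted to the gene's own strand and a first base 20 to 40 bases before the start, where the box usually sits, the shares were 2.09% of all promoters, 21.3% of those lower by at least 2 and 3.83% of those called higher. The shares for falls of at least 2 rest on 31 and 23 of 108 promoters. The 5 genes with the largest falls among these are shown over the 60 bases that end just before the start, with the box in capitals. DUSP1 is at chr5:172771196-172771255 on the minus strand, and FOSB at chr19:45467936-45467995, FOS at chr14:75278768-75278827, ID1 at chr20:31605229-31605288 and PPP1R15A at chr19:48872361-48872420 are on the plus strand.
DUSP1: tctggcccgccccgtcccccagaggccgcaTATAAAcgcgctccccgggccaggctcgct
FOSB: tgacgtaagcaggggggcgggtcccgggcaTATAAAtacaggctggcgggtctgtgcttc
FOS: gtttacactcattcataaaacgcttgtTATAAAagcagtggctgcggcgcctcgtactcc
ID1: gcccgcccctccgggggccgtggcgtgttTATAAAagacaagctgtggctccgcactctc
PPP1R15A: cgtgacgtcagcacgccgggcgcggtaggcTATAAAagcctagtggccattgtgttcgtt
The first base of the box lay 29 to 33 bases before the start in the promoters of this kind with the 8 largest falls. The NF-kB motif was in 13.1% of all promoters, 13.3% of those called lower and 23.1% of those lower by at least 2, and the AP-1 motif TGANTCA in 4.43%, 5.67% and 8.33%. A TATA match inside a CArG box counts for both motifs. Falls of at least 2 were 4 of 3815 genes at 3 to 10 FPKM in control and 54 of 2071 at 30 to 100 FPKM. The motif shares were not repeated at one control level. These matches describe letters in a window and say nothing of factor binding, and the window and TATA count were chosen after the falls were known.

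The AP-1 factors and their relatives are leucine zipper proteins that pair on DNA, and most of those tested fell. Of 39 members of the family tested, 25 were called lower and 0 higher, with a median of -0.84, beside 12.9% lower and a median of 0.03 over all genes. FOS, at chr14:75745479-75748937 of hg19 in the deposited table, stood at 486, 437 and 358 FPKM in control and at 49.6, 59.1 and 52.4 with OTA, a log2 difference of -2.96 (SE 0.21; limma adjusted p = 3.14e-06). JUNB stood at 523, 496 and 382 FPKM in control and at 61.4, 67.5 and 55.7 with OTA (-2.90, SE 0.16). The lowest control was several times the highest OTA library in both genes. JUN and JUND, the partners of FOS, fell by 2.08 each on the log2 scale, and MAFF by 2.51. CEBPB, a factor of acute phase and fat cell genes, fell from 230.4, 249.8 and 252 to 54.2, 57.6 and 37.3 FPKM. NFE2L2, which drives antioxidant genes, fell by 1.94. CEBPA, an enterocyte and liver factor, had a difference of -0.39 and was not called (limma adjusted p = 0.0586), and NFE2L1 one of 0.10.

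KLF and SP factors, zinc finger proteins that bind GC-rich promoters, showed the same direction: 12 of 19 were lower, 0 higher, and the median was -1.19. KLF6 was the most abundant of those that fell, at 525, 481 and 457 FPKM in control and 81.5, 75.8 and 57.9 with OTA (-2.76, SE 0.34). KLF4, needed for goblet cells and for leaving the cell cycle, stood at 35.2, 33.8 and 36.9 FPKM in control and at 7.62, 8.19 and 7.54 with OTA (-2.05, SE 0.14, limma adjusted p = 2.01e-06). The groups did not overlap in either gene, and the libraries within a group lay close together. KLF10 and KLF11, which act below TGF-beta, fell by 2.28 and 2.04, and KLF5, a crypt factor, by 1.27. SP1 and SP3, widely used activators, were not called, with differences of -0.29 and -0.38.

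**Figure D2:**
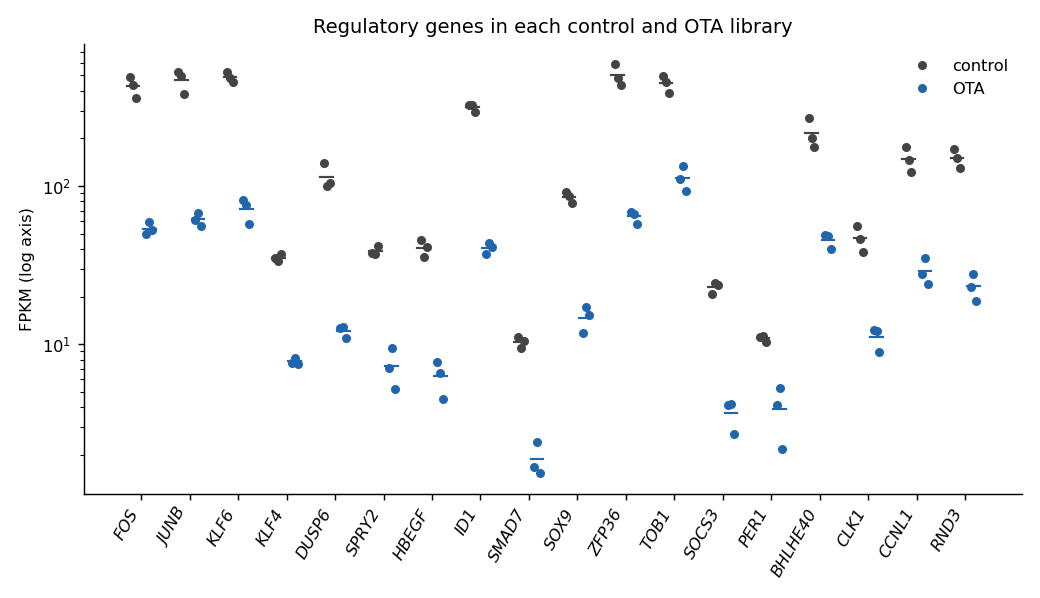
FPKM on a log axis of 18 regulatory genes in the 3 control libraries (grey) and the 3 OTA libraries (blue), with a bar at each mean. In all 18 genes each OTA point lies below each control point, which held for 25.7% of all genes tested. The 18 genes were picked from those called lower, so this follows largely from the picking.

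Many feedback inhibitors of growth factor signalling fell as well. Of 23 MAP kinase phosphatases and Sprouty family genes, 15 were lower and 1 higher (1 to 2 with a library left out), with a median of -1.09. DUSP6, which inactivates ERK in the cytoplasm, was at 139, 100.1 and 104 FPKM in control and at 12.7, 12.8 and 11 with OTA (-3.12, SE 0.19, limma adjusted p = 1.03e-06). SPRY2, an inhibitor of receptor tyrosine kinase signalling, was at 37.8, 37.3 and 41.8 FPKM in control and at 7.07, 9.46 and 5.21 with OTA (-2.31, SE 0.29). Both genes were lower in each OTA library than in any control. DUSP2, DUSP4 and SPRY4 fell by 2.21, 1.71 and 1.99, and ERRFI1, which blocks the EGF receptor, by 1.89. The exception was DUSP9, which rose from 12.9, 17.5 and 17.1 to 28.5, 29 and 31.5 FPKM (0.87, SE 0.16). DUSP23 and DUSP18, atypical phosphatases, were not called (-0.24 and -0.23).

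Among EGF receptor ligands, 3 fell: HBEGF from 45.6, 35.6 and 41 to 7.70, 6.57 and 4.51 FPKM (-2.54, SE 0.18), EREG by 2.06 and AREG by 1.42. The sheddase ADAM10 was not called, at 0.45, and the median of the 10 EGF family genes was 0.05. So the falls in that list lay in its ligands, and 0 of its members rose (0 to 1 with a library left out).

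ID proteins, which hold basic helix-loop-helix factors off DNA, and inhibitors of BMP and TGF-beta signalling had the lowest median of the lists, -1.40, with 10 of 14 lower and 0 higher. ID1 was at 327, 327 and 292 FPKM in control and at 37.4, 43.6 and 41 with OTA (-2.92, SE 0.22, limma adjusted p = 4.64e-06). SMAD7, the inhibitory SMAD, was at 11.1, 9.46 and 10.4 FPKM in control and 1.68, 2.40 and 1.53 with OTA (-1.99, SE 0.18). In each gene the OTA libraries lay well under the controls. ID3, TGIF1 and BAMBI fell by 2.20, 2.11 and 1.74. The co-repressor SKI was not called, at -0.49.

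Targets of developmental pathways were partly lower. Of 19 Wnt targets and antagonists, 6 fell, 0 rose and the median was -0.32. SOX9, a stem cell and Paneth cell factor that Wnt induces, stood at 92, 87 and 78.3 FPKM in control and 11.7, 17.1 and 15.3 with OTA (-2.48, SE 0.19). AXIN2, the standard readout of Wnt activity, fell by 1.65. MYC fell by 2.03, and CCND1 and ASCL2, also Wnt targets, were not called (-0.32 and -0.16). Of 21 Notch genes, 3 fell, namely the effector HES1 (201, 183 and 174.6 against 45.9, 39.7 and 40.9 FPKM), the feedback inhibitor NRARP (-0.92) and the ligand JAG1 (-0.83), and HES6 and HES4 were not called. The list's share of falls, 3 of 21, was close to that of all genes.

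Of 22 target genes of YAP, the growth control co-activator, 12 fell and 0 rose, with a median of -0.68. ANKRD1 stood at 46.1, 51 and 79.7 FPKM in control and 9.24, 7.83 and 8.53 with OTA (-2.61, SE 0.23). The matrix proteins CYR61 and CTGF fell by 2.32 and 2.16, and AMOTL2, an inhibitor of YAP, by 2.11. YAP1 itself was at 83.6, 81.9 and 89.8 FPKM in control and at 86.5, 91.2 and 81.6 with OTA, overlapping ranges with a difference of 0.02 (SE 0.28), and its DNA-binding partner TEAD3 was not called (-0.33).

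Some genes that shorten the life of other messages fell. Of 40 genes of mRNA decay and deadenylation, 13 were lower (20 without combined replicate 3) and 0 higher (0 to 1), with a median of -0.32. ZFP36, tristetraprolin, which binds AU-rich elements, had 587, 479 and 435 FPKM in control and 68.9, 66.5 and 57.6 with OTA (-2.93, SE 0.25). Its relatives ZFP36L1 and ZFP36L2 fell by 1.52 and 1.28. The RNase ZC3H12A, which cuts cytokine messages, fell by 2.48, and TOB1, an adaptor to the deadenylase, from 496, 454 and 387 to 112, 134 and 93.4 FPKM. The CCR4-NOT subunit CNOT11 and HNRNPD, which also binds AU-rich elements, were not called, at 0.17 and 0.31.

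Among the listed substrate receptors and single-protein ubiquitin ligases of short-lived signalling proteins, 17 of 23 fell, 0 rose and the median was -1.02. Without OTA replicate 3 the count of falls was 11. The list was chosen with earlier results of these data known, so these counts describe its members and not all ubiquitin ligases. SOCS3, the feedback inhibitor of cytokine receptors, was at 20.9, 24.5 and 23.6 FPKM in control and 4.11, 4.19 and 2.71 with OTA (-2.38, SE 0.17, limma adjusted p = 4.08e-06). FBXW7, which targets MYC and cyclin E, fell by 1.89, MDM2, the ligase of p53, by 1.43, and SIAH1 by 1.55. CBL, the ligase of receptor tyrosine kinases, was not called (0.12), nor was KLHL24 (-0.57). Of 32 ubiquitin-conjugating enzymes 1 was higher (0 to 4) and 0 lower (0 to 2), and of 44 proteasome genes 1 was higher (0 to 5) and 2 lower (1 to 3).

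In the list of circadian clock genes, 10 of 21 were lower and 0 higher, with a median of -0.74. BHLHE40 stood at 271, 201.3 and 175 FPKM in control and 48.8, 48.1 and 40 with OTA (-2.20, SE 0.24). NR1D1 and NR1D2, the REV-ERB receptors, fell by 1.91 and 1.66, CRY2 by 1.64, PER1 by 1.35 and PER2 by 0.85. The kinase CSNK1E and the output factor DBP were not called, at -0.28 and 0.42.

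Among 28 nuclear receptors 7 fell (4 without control replicate 3), 0 rose (0 to 1) and the median was -0.10. NR4A1, a receptor of the immediate-early kind, was at 178.9, 168 and 146 FPKM in control and at 38.4, 34.9 and 31.1 with OTA (-2.20, SE 0.14, limma adjusted p = 1.97e-06). NR4A2 and the bile acid induced repressor NR0B2 fell by 1.60 and 1.57. The constitutive receptors ESRRA and NR2F6 were not called (-0.12 and 0.22). HOX and CDX factors, which hold positional identity, showed 2 falls and 0 rises (0 to 2) among 24 and a median of 0.08. CDX2, the main intestinal homeobox factor, was at 55.9, 62.6 and 51.7 FPKM in control and 45.2, 56 and 59.8 with OTA, ranges that overlap.

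Cell cycle control genes of G1 had 8 falls and 0 rises (0 to 2) among 25, with a median of -0.32. Genes that drive and genes that hold back the cycle were both among them. CDC25A, a phosphatase that activates cyclin-dependent kinases, fell by 1.38, and E2F2 and E2F3, activators of S phase genes, by 1.27 and 1.26. CDKN1A and CDKN1B, which block these kinases, fell from 144.6, 123 and 118 to 52, 61 and 53.1 FPKM and from 173, 168 and 159 to 77.7, 71.9 and 67.4 FPKM.

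The machinery of transcription itself was divided. Regulators of the step from pausing to elongation had 10 falls, 0 rises (0 to 2) and a median of -0.27 over 34 genes. CCNL1, a cyclin tied to splicing, was at 176, 147 and 123 FPKM in control and 28, 35.1 and 24.2 with OTA (-2.31, SE 0.20). CCNT1 and CCNT2, the cyclins of the elongation kinase P-TEFb, fell by 1.23 and 1.65. MEPCE and HEXIM1, which hold P-TEFb inactive in the 7SK particle, fell by 1.97 and 0.67, and BRD2, a reader of acetylated histones, by 1.34. TCEA1, an elongation factor, was not called (0.43). Of 32 Mediator subunits 8 fell, among them MED9 (-1.38), MED26 (-1.16) and MED17 (-0.90). The Mediator count was 3 to 5 without any 1 of the 6 libraries compared, and 0 rose (0 to 3). RNA polymerase II subunits gave 1 fall (0 to 1) and 2 rises (0 to 3) among 12, and those of polymerases I and III 2 falls (1 to 5) and 0 rises among 19, with POLR1C at -1.48.

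Splicing genes were taken as SR proteins with their kinases, the core spliceosome and hnRNP proteins, and the lists were not tested against each other. Of 22 SR factors and kinases 11 fell and 1 rose (0 to 2), with a median of -0.51. CLK1, the kinase that releases SR proteins from speckles, was at 55.6, 46.5 and 38.2 FPKM in control and 12.2, 12.2 and 8.89 with OTA (-1.98, SE 0.18, limma adjusted p = 1.81e-05). SRSF6 was at 268, 238 and 228 FPKM in control and 84, 100.3 and 99.8 with OTA (-1.36, SE 0.18). SRSF3 and TRA2B fell by 0.93 and 0.73. Of 38 core spliceosome proteins 0 fell (0 to 1) and 1 rose (0 to 6), and of 24 hnRNP proteins 2 fell (1 to 4) and 1 rose (0 to 4), with medians of 0.09 and 0.02. Many SR and CLK genes hold exons that trigger decay of their own message, and the FPKM per gene do not separate those forms.

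Some chromatin and nucleolar genes were lower. Of 44 histone lysine demethylases and methyltransferases 12 fell (7 without control replicate 3), 1 rose (0 to 3) and the median was -0.20. KDM6A and KDM6B, which remove methyl groups from lysine 27 of histone H3, fell by 1.29 and 1.23, and SETD1A by 0.91. Of 57 factors of ribosome biogenesis in the nucleolus 11 fell (19.3%, beside 12.9% of all genes tested), 2 rose (0 to 3) and the median was -0.23. That count of falls was 5 without control replicate 2 or OTA replicate 2, 6 without control replicate 3 or OTA replicate 3 and 20 without combined replicate 3. The nucleolar count thus depended on single libraries. WDR43 was at 28.2, 31.9 and 30.4 FPKM in control and 13.9, 13.6 and 15.2 with OTA (-1.04, SE 0.14). Small nucleolar RNA host genes had 0 falls (0 to 5) and 0 rises among 18, and a median of 0.01.

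The longest list, genes named ZNF, had 100 falls and 4 rises (0 to 16) among 359 and a median of -0.32. The count of falls was 66 without control replicate 1, control replicate 3 or OTA replicate 1, 58 without OTA replicate 3, and 140 without combined replicate 3. ZNF165 was at 70, 58 and 55.3 FPKM in control and at 12.4, 12.4 and 10.5 with OTA (-2.28, SE 0.14, limma adjusted p = 1.33e-06). ZNF57 and ZNF574 fell by 2.32 and 2.18, and ZNF581 and ZNF207 were not called, at 0.17 and -0.46. Zinc finger genes resemble one another, and fragments of close copies can be assigned to either.

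**Figure D3:**
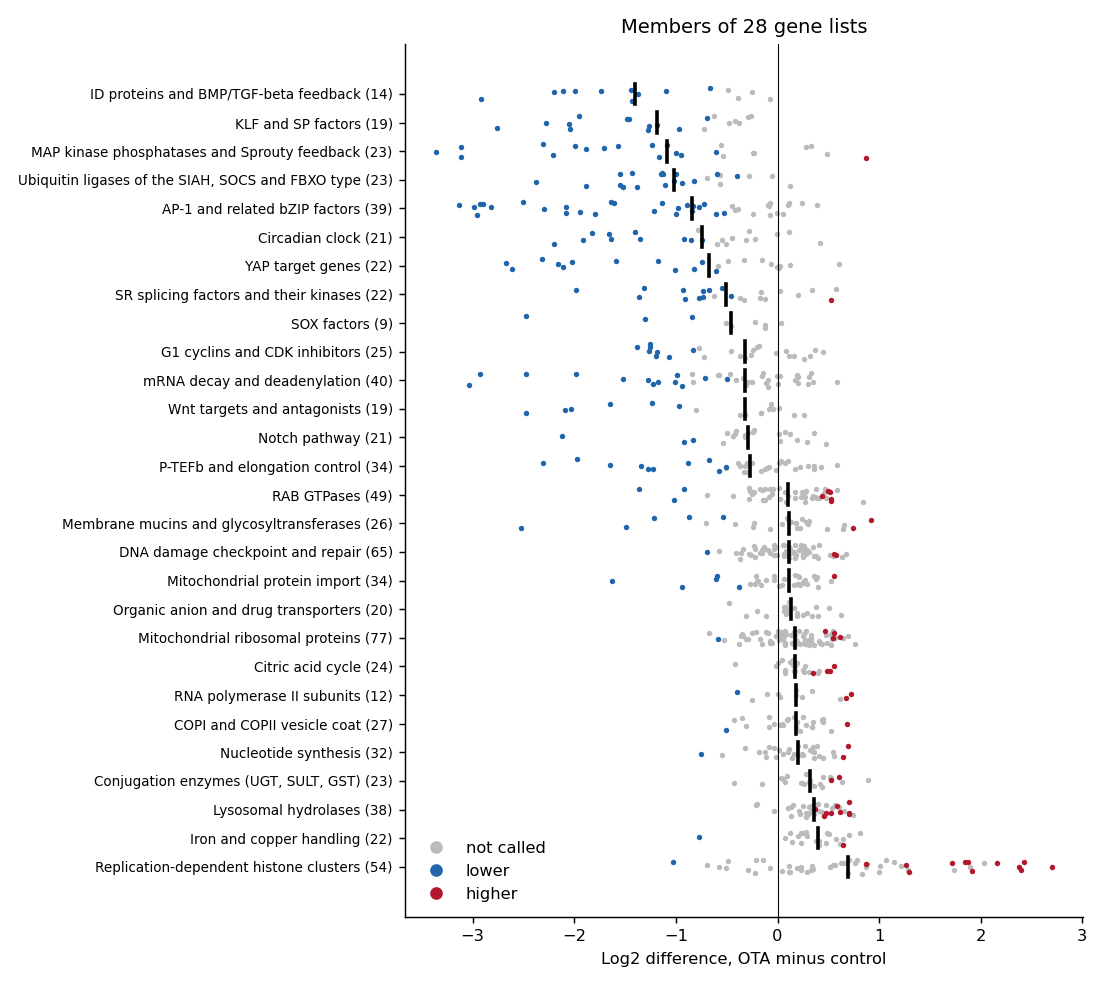
Log2 difference, OTA minus control, of each tested member of the 28 gene lists with the lowest and highest medians, leaving out the ZNF, LINC and antisense lists, with the number of members in brackets, the median as a black bar, lower calls in blue, higher calls in red and genes not called in grey. The upper 14 lists (medians -1.40 to -0.27) hold regulators, and the lower 14 (0.10 to 0.69) hold mainly metabolic, organelle and histone genes.

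Gene structure varied with the direction and size of the change. By GENCODE 29 models, matched by symbol for 11720 of 11753 protein-coding genes, 13.8% of tested genes had at most 3 exons. The share was 23.7% among lower calls, 32.4% among falls of at least 1, 42.7% among falls of at least 2 and 11% among higher calls. The median length of the deposited locus was 33870 bases over all these genes, 22450 for falls of at least 1 and 6900 for falls of at least 2. The nonamer TTATTTATT, an AU-rich element of unstable messages, stood in the 3′ UTR of 7.72% of all genes, 15.3% of falls of at least 1, 20.6% of falls of at least 2 and 6.86% of higher calls. The median 3′ UTR had 958 bases over all genes, 874 among genes not called, 1315 among lower calls, 1243 among falls of at least 1 and 877 among falls of at least 2, so the nonamer shares come from UTRs of unequal length. Level moves with calling, so the shares were also taken among the 2013 genes with a control mean from 30 to 100 FPKM. There, 32.3% of the 201 falls of at least 1 and 12.9% of the genes not called had at most 3 exons, and 18.9% and 5.65% had the nonamer. These properties were chosen after the falls were known and are given as descriptions.

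**Figure D4:**
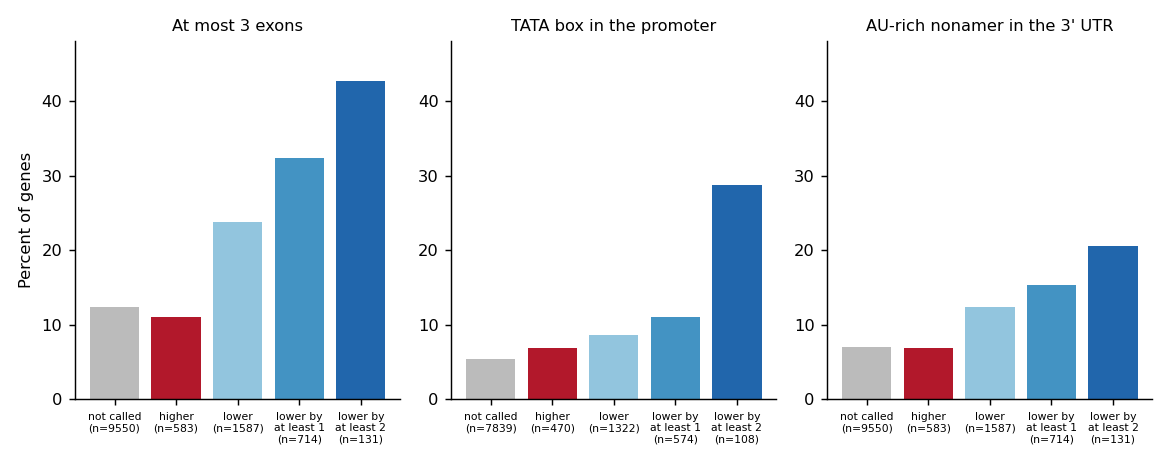
Percent of genes with at most 3 exons (left), with TATAAA in the 300-base promoter window (middle) and with the AU-rich nonamer in the 3′ UTR (right), by call and size of fall with OTA, n being the genes in each bar. All 3 shares are highest among falls of at least 2 (42.7%, 28.7% and 20.6%). Control level was not matched between the bars.

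Calls were unevenly spread over mitochondrial lists, against 4.82% higher and 12.9% lower over all genes. Of 77 mitochondrial ribosomal protein genes 4 rose (0 to 20) and 1 fell (0 to 4), with a median of 0.17. Of 24 citric acid cycle genes 4 rose (0 to 7), 0 fell (0 to 1) and the median was 0.17. Of 34 mitochondrial import genes 1 rose (0 to 3) and 5 fell (3 to 5), and GRPEL2 and TIMM17A, which serve the import motor and channel, fell by 1.63 and 0.94. Cytosolic chaperonin and prefoldin genes had 0 calls among 14 (up to 2 rises and 1 fall with a library left out).

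Translation factors were mixed, with 5 rises (1 to 10) and 3 falls (2 to 5) among 49. These shares were 10.2% higher and 6.12% lower, beside 4.82% and 12.9% over all genes. EIF1, which guards start codon choice, was at 1608, 1469 and 1592 FPKM in control and 879, 749 and 684 with OTA (-1.02, SE 0.17). EIF5, its partner, fell by 0.71. EIF3F rose by 0.66 (SE 0.12), and EEF1G was not called (0.45).

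Lysosomal hydrolases, the enzymes that break down polymers and lipids in lysosomes, had more rises than falls. Of 38 lysosomal hydrolases 9 rose and 0 fell, the median was 0.36, and in 26 each OTA library lay above each control, which held for 24.4% of all genes tested. Leaving out any 1 of the 6 libraries compared left 0 to 4 rises, and leaving out combined replicate 3 gave 19. PSAP, the precursor of the saposins, was at 608, 668 and 693 FPKM in control and 1011, 914 and 918 with OTA (0.53, SE 0.16, limma adjusted p = 0.0339). PSAP was not called without any 1 of the 6 libraries compared or CW14 replicate 1 (limma adjusted p up to 0.12). NEU1 and the protease CTSD were not called (0.21 and 0.25). RAB GTPases had 5 rises (1 to 14) and 3 falls (3 to 6) among 49, or 10.2% and 6.12%, beside 4.82% and 12.9% over all genes. RAB30, RAB9A and RAB35 fell by 1.36, 1.02 and 0.92.

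Several amino acid carriers were lower. Of 27 amino acid and peptide transporters 7 fell (4 without OTA replicate 3) and 2 rose (0 to 8), with a median of -0.08. SLC38A2, a carrier of small neutral amino acids, was at 236, 197 and 218 FPKM in control and 43.6, 52.3 and 35.9 with OTA (-2.29, SE 0.25). SLC7A5, which carries phenylalanine and other large neutral amino acids, was at 56.3, 63.8 and 89.9 FPKM in control and 27.9, 22 and 21.7 with OTA (-1.49, SE 0.22, limma adjusted p = 0.000642). Its heavy chain SLC3A2 fell by 1.10 and the cystine carrier SLC7A11 by 1.36. In each of these 4 genes the highest OTA library was below the lowest control, which held for 25.7% of all genes tested. They were picked as the called members with the largest differences, so this follows largely from the picking. The glutamine carrier SLC1A5 and the creatine carrier SLC6A8 were not called (-0.25 and 0.64).

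Genes of phenylalanine handling and organic anion transport showed few calls. Of 15 genes of phenylalanine and tyrosine handling, 1 fell (0 to 2) and 0 rose (0 to 1). PCBD1, which recycles the cofactor of phenylalanine hydroxylase, and YARS, the tyrosyl-tRNA synthetase, were not called (0.39 and -0.27). Of 20 organic anion and drug transporters 0 were called in limma (0 to 3 rises and 0 to 1 falls with a library left out). SLCO2B1, an intestinal organic anion carrier, was at 167, 150.3 and 148 FPKM in control and 187.9, 188.7 and 232 with OTA (0.38, SE 0.15, limma adjusted p = 0.102). Of 23 conjugation enzymes 2 rose (0 to 6) and 0 fell, with a median of 0.32.

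In other metabolism, genes of glucose handling had 4 falls and 0 rises (0 to 3) among 16. TXNIP, which retrieves glucose transporters from the surface, was at 368, 346 and 321 FPKM in control and 64.1, 69.3 and 61.8 with OTA (-2.39, SE 0.21). Its relative ARRDC4 fell by 1.02, and the transporter SLC2A3 was not called (0.45). AMD1, which makes the aminopropyl donor for polyamines, fell by 1.08, and AHCY was not called (0.40). Iron and copper genes had 1 rise (0 to 10) and 1 fall (0 to 1) among 22 but a median of 0.39. FTL, the ferritin light chain, was at 4888, 4572 and 4892 FPKM in control and 7037, 5960 and 6144 with OTA, without overlap, and was not called (0.41, SE 0.18, limma adjusted p = 0.135). Of 32 genes of nucleotide synthesis 2 rose (0 to 7) and 1 fell (1 to 2); the fall was MTHFD2 (-0.75), of mitochondrial folate metabolism.

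At the level of the epithelium, several small GTPases of the actin cytoskeleton fell. RND3, an atypical GTPase that opposes contraction (chr2:151324705-151344209 of hg19 in the deposited table), was at 172, 149 and 129 FPKM in control and 22.9, 27.9 and 18.9 with OTA, a 6.46-fold lower mean (-2.65, SE 0.20, limma adjusted p = 4.64e-06). RHOB, an endosomal GTPase made and degraded quickly, fell from 406, 382 and 331 to 61.2, 84.6 and 50.6 FPKM, and RHOU by 1.43. ACTB, an actin, and RHOA were not called (-0.14 and 0.21). PARD6B, a scaffold of apical polarity, was at 106.9, 91.8 and 96.1 FPKM in control and 25.7, 31 and 20.1 with OTA (-1.92, SE 0.19). CLDN23 fell by 1.84, whereas CLDN7 and CLDN1 were not called (0.04 and 0.38).

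Other surface and matrix genes had calls in both directions. Of 26 membrane mucin and glycosyltransferase genes 5 fell and 2 rose (1 to 5), with a median of 0.11. GCNT3 and GCNT2, which branch mucin and blood group sugars, fell by 2.53 and 1.49, and FUT4 by 1.22. Of 29 laminin, integrin and matrix protease genes 3 fell and 2 rose (1 to 6). These shares, 10.3% and 6.9%, were near the 12.9% lower and 4.82% higher over all genes. PLAUR, the urokinase receptor, was at 56.4, 49.1 and 45.2 FPKM in control and 12.3, 10.6 and 7.55 with OTA (-2.22, SE 0.30). LAMB1, a laminin chain, rose from 8.20, 8.22 and 9.40 to 16.7, 16.2 and 15.3 FPKM (0.83, SE 0.13, limma adjusted p = 0.00112), and ITGB1 was not called (0.20). Of 65 genes of DNA damage checkpoints and repair, 2 rose (0 to 7) and 1 fell (0 to 1), with a median of 0.11; XRCC6 and APEX1 were not called (0.18 and 0.35).

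The genes outside the histone clusters with the largest rises included several that were low in control. Genes low in control could enter the test through higher levels in other groups, OTA included. BEST1, a chloride channel, went from 0.962, 1.92 and 1.48 to 5.93, 5.37 and 6.14 FPKM (1.49, SE 0.26). WBSCR27, a predicted methyltransferase, went from 2.18, 2.42 and 2.40 to 8.99, 7.45 and 8.02 FPKM (1.45, SE 0.15, limma adjusted p = 4.48e-05). PPFIA4, a liprin scaffold protein, went from 4.88, 7.19 and 6.12 to 17.8, 15.8 and 15.9 FPKM (1.32, SE 0.20). In these genes each OTA library was above each control, which was a condition of their being picked. It held for 24.4% of all genes tested. SERPINA6, which carries cortisol in blood, stood at 14.6, 13.5 and 12.5 FPKM in control and at 27.3, 35.7 and 35.8 with OTA (1.22; limma adjusted p = 0.00125). TAF9B, a TFIID and SAGA subunit, was at 35.8, 38.1 and 29.4 FPKM in control and at 69.7, 84.1 and 80.9 with OTA (1.16, SE 0.30), but was not called without control replicate 1 or 3 or OTA replicate 2 or 3 (limma adjusted p up to 0.0816). Non-coding PWAR5 and PWARSN, which lie together in the Prader-Willi region of chromosome 15, were higher by 1.21 and 1.11. CD8A, known from T cells, was at 0.814, 0.747 and 0.819 FPKM in control and 4.44, 2.91 and 3.50 with OTA, while the leukocyte marker PTPRC was listed at 0 in all 6 libraries. The 7 rises of at least 2 were HIST1H2AI, HIST1H2AL, HIST1H2AM, HIST1H2BE, HIST2H3A, LOC221946 and the small RNA SNORA63, which was listed at 0 in all controls, and small RNA values of this table are not a measure of level. HIST2H3A was not called without control replicate 3 (limma adjusted p = 0.0501).

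Replication-dependent histone genes had the highest median of the lists, 0.69, with 12 rises (8 to 18) and 1 fall (0 to 2) among 54. The fall was HIST1H2BC, at 130.2, 85.7 and 89 FPKM in control and 45.8, 41.8 and 59.1 with OTA (-1.03, SE 0.27), and it was not called without control replicate 1 or OTA replicate 1 or 2 (limma adjusted p up to 0.0837). HIST1H2BK, which is also made with a poly(A) tail, was not called (0.12). Of 17 histone variants expressed independently of replication, 3 fell (2 to 3) and 1 rose (0 to 2), with a median of 0.07. H2AFX and H3F3B fell by 0.98 and 0.57, and H1F0 was not called (0.30). Most cluster histone messages end without a poly(A) tail, their copies are near identical, and whether the libraries selected poly(A) RNA is not given in the sources used here.

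Among the most abundant messages, the 10 genes with the highest control level mostly had higher values with OTA. AHSG, a secreted liver-type glycoprotein, was at 3390, 2543 and 2411 FPKM in control and 3957, 4025 and 4305 with OTA (0.57, SE 0.17), and was called with all libraries but not without control replicate 2 or 3, any 1 OTA replicate, CW14 replicate 1 or 2 or combined replicate 1 (limma adjusted p up to 0.164). GAPDH was at 7033, 7124 and 6927 FPKM in control and 9851, 9608 and 9989 with OTA, without overlap, and was not called (0.48, SE 0.20, limma adjusted p = 0.13). APOA1, FTL, RPLP1, RPL29 and LRRC75A-AS1 were also above control in each OTA library and not called, at 0.40 to 0.54, while RPL41 overlapped (0.25). Under quantile normalization GAPDH changed direction, to -0.30.

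The toxin's effect was compared with that in wells holding bacteria, the combined group against CW14, a comparison that shares no library with the first. There, 4179 genes (32.3%; 2780 without CW14 replicate 2) were called, 2260 lower (17.5%) and 1919 higher (14.8%). Of the 1665 genes lower with OTA alone, 1076 were also called lower with bacteria present, 64.6% of the first set and 47.6% of the second, 31 were called higher, and the median differences were -0.94 and -0.75. Of the 623 genes higher with OTA alone, 185 were called higher with bacteria, 29.7% of the first set and 9.64% of the second, 30 were called lower, and the medians were 0.62 and 0.26. Without combined replicate 3 the falls shared were 1432, 58.2% and 59.3%, and the rises shared 574, 30.2% and 29.6%. The falls named above did not all recur. With bacteria present the difference was -3.22 for FOS, -4.00 for ZFP36, -3.60 for RND3, -3.16 for CLK1, -2.74 for SOCS3 and -1.25 for ID1, all called. It was 0.16 for BAMBI, -0.02 for SLC7A5 and -0.01 for POLR1C, none of them called, and H2AFX was called higher (0.67). Among the rises, SERPINA6 was called with bacteria too (0.79), while TAF9B was not (-0.53). The interaction, the difference between the effects, was called in 431 genes (3.33%), a count that ran from 17 (without control replicate 3) to 1595 (without combined replicate 3) with a library left out.

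**Figure D5:**
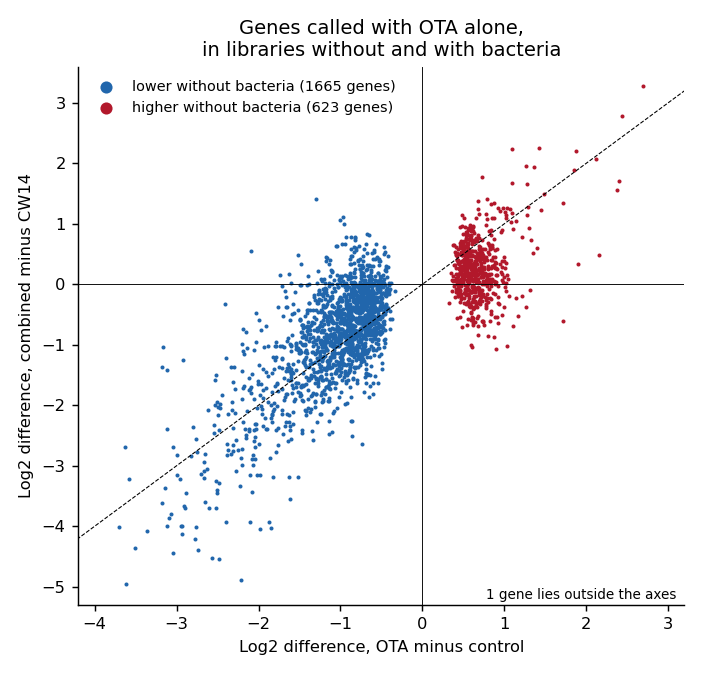
Log2 difference with OTA in libraries with bacteria (combined minus CW14, left axis) against that without bacteria (OTA minus control, bottom axis) for the 1665 lower (blue) and 623 higher (red) genes called without bacteria, with a dashed line at equal values. Blue points lie mostly below 0 on both axes, red points spread to either side of 0 on the left axis, and 1 gene lies outside the axes.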

How the data were processed

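RNA from 12 Caco-2 libraries was sequenced, and the authors deposited 1 table of FPKM for 26125 gene rows. The submitters' processing notes name cutadapt 1.10, TopHat2 2.0.13, Cufflinks 2.2.1, Cuffnorm, Cuffdiff and hg19. Annotation, scaling between libraries, read depth and strandedness: not given in the sources used here. Therefore only relative depths, recovered from the steps between low FPKM values, are given, and no counting intervals.

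FPKM were taken as log2(FPKM + 1), and limma 3.58.1 (R 4.3.3) was fitted to all 12 libraries as 4 group means with a trended spread and 8 residual degrees of freedom. Genes needed a mean of 1 FPKM, p-values were two-sided, adjusted by Benjamini-Hochberg over 12928 genes and called under 0.05, and the steps were tested on simulated data. Lists are described by counts and medians with no set test. The members and lists were chosen with earlier results of these data known. Named genes are the 20 largest falls and rises without overlap between groups (histone clusters, antisense, small RNA, hyphenated, LOC and date-like symbols left out), up to 4 called members of each list by size of difference and up to 2 uncalled ones by control level, the 10 highest genes, and up to 10 interaction calls also called with OTA alone. Further list members named in the text, the TATA box promoters and the gene structure shares were chosen after their values were seen, and some genes under the rule are not reported here. Promoters come from RefSeq (GRCh38.p14), matched by symbol for 81.9% of 11753 protein-coding genes tested. Alternatives were another pseudocount (0.1), other filters, 3 scalings, array weights, only the groups compared, a replicate block, and each library left out.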

Additional observations from a re-analysis of the deposited data

Results flagged for a closer look

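For 10 genes called with OTA alone, the difference with OTA was not the same in wells that also held bacteria, by limma's test of the interaction, (combined minus CW14) minus (OTA minus control). These are the 10 with the largest interaction among genes called in both tests. Each group has 3 libraries, too few for a test of single libraries as outliers.

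DKK1, a secreted Wnt antagonist, fell by 2.09 on the log2 scale with OTA alone and stood at 114.3, 102.5 and 161.8 FPKM with CW14 against 233.6, 198.3 and 131.1 in the combined group, an interaction of 2.65 on the log2 scale (adjusted p = 0.0132). SP5, a Wnt-induced factor, had an interaction of 2.09 (adjusted p = 0.00651), from 20, 14.9 and 20.1 FPKM with CW14 to 47, 38.8 and 36.5 in the combined group. PUS1, a pseudouridine synthase, had one of 2.07 (adjusted p = 0.00651), from 11.3, 10.5 and 10.6 to 26, 18.8 and 27.3 FPKM. These 3 were lower with OTA in wells without bacteria and had higher means with it in wells with bacteria. The values for SOX2, a pluripotency factor, and FOXQ1, a forkhead factor, were 2.71 and 2.09 (adjusted p = 0.0164 and 0.035), after falls of 1.30 and 2.41 with OTA alone.

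The interaction was negative for CXCL3, a neutrophil chemokine (-2.67, adjusted p = 0.0284), RCAN1, a calcineurin inhibitor (-2.06, adjusted p = 0.0466), ARL14, a small GTPase (-2.06, adjusted p = 0.04), INSIG2, which retains sterol sensors (-2.05, adjusted p = 0.00782), and SORL1, a sorting receptor (-1.96, adjusted p = 0.00651). CXCL3, RCAN1 and ARL14 fell with OTA alone and by more with bacteria present. These 3 genes had higher means with CW14 than in control. The means were 82.3 and 9.81 FPKM for CXCL3, 339.9 and 81.4 for RCAN1 and 176 and 81.5 for ARL14. In the combined and OTA groups they were 1.65 and 1.47, 20 and 19.8, and 10.25 and 21.3 FPKM. INSIG2 and SORL1 rose with OTA alone (1.03 and 0.89) and were lower with it where bacteria were present (-1.02 and -1.07). SORL1 went from 83.5, 97.6 and 71.1 FPKM with CW14 to 39.8, 46.6 and 32.5 in the combined group. DKK1, SP5, PUS1, SORL1 and INSIG2 were called in each of the 12 fits that leave out 1 library, SOX2 in 9, FOXQ1 and ARL14 in 4, and CXCL3 and RCAN1 in 3.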

How the results depend on the processing

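Across 21 alternatives, 134 of 140 named genes called with OTA kept call and direction wherever tested. The exceptions were AHSG, HIST1H2BC, HIST2H3A, PSAP, SOX2 and TAF9B. Named genes were picked largely by size of difference, so the 134 of 140 does not stand for all calls. Of 52 named genes not called, 35 were called in at least 1 alternative, so a gene not called is not thereby unchanged. A changed direction was seen in 3 of the 52. CDX2 was 0.02 after median-centring, 0.01 after upper-quartile scaling and -0.17 to 0.03 with a library left out. GAPDH was -0.30 under quantile normalization, and YAP1 -0.02 to 0.06 with a library left out (-0.00 without control replicate 2). Which genes are called depends on how the spread is estimated. With only the groups compared in the fit, 4621 genes were called with OTA (2093 higher, 2528 lower) and 1521 in the combined group against CW14. With array weights, which gave combined replicate 3 little weight, these counts were 5864 (2781 and 3083) and 7991, and the interaction count was 5124. Rises numbered 1153, 976 and 1016 after median-centring, quantile and upper-quartile normalization. With a library left out, 1299 to 4364 genes were called with OTA, 208 to 1903 higher and 1091 to 2461 lower, the combined group against CW14 gave 2780 to 5297 and the interaction 17 to 1595. Testing genes of any level left 235 interaction calls. The labels number replicates alike, but same-numbered control and OTA libraries did not deviate together (correlations of -0.0961 to -0.15), and 0 of 6 libraries correlated best with its own number. With the replicate block 2032 genes were called with OTA and 286 in the interaction. The read depth behind each value is unknown. The causes of these shifts were not tested.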
